A study of Mus musculus with 6 samples.

Results

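Penk, Crhbp, Avpr1a and Vipr1 are 4 neuropeptide and neurohormone genes, chosen by name out of the 13564 genes in the normalized table deposited with the study. They were chosen because they differed between Foxo1-deficient and control T cells in these same libraries, so their genotype differences are given below as a description and without a test. All 4 were found in the files, and all 4 were among the 13691 genes, of 55487 counted, that had at least 10 counts in at least 3 of the 6 libraries. Crhbp, Avpr1a and Vipr1 passed that filter only through the genotype in which they are high, whereas Penk reached it in either genotype.

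Neuropeptides are cut from larger secreted precursor proteins by convertases, trimmed, and bound by G protein-coupled receptors on other cells, while peptidases at the cell surface and soluble binding proteins limit their reach. Penk encodes proenkephalin, the precursor of the enkephalins, which act on opioid receptors and are also made by activated lymphocytes. Crhbp encodes the secreted protein that binds corticotropin-releasing hormone and urocortin, Avpr1a the Gq-coupled V1a receptor for vasopressin, and Vipr1 the Gs-coupled VPAC1 receptor for vasoactive intestinal peptide and PACAP, the VIP receptor known from resting T cells.

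The libraries came from naive CD4 T cells of the lymph nodes of C57BL/6J mice, activated in culture for 4 days. In Foxo1TKO mice a Cre transgene under the CD4 promoter deletes loxP-flanked Foxo1, a forkhead transcription factor of T-cell quiescence, from the double-positive thymocyte stage on, in CD4 and CD8 lineages alike. Foxo1Ctrl mice carry the same loxP-flanked alleles without Cre. The labels give no age, and the study describes the Foxo1-deficient mice of these libraries as young adults. In both genotypes 50000 naive cells per culture, by the labels (the study's methods give a larger number), received soluble anti-CD3 antibody (clone 145-2C11) at 0.1 µg per ml and 250000 splenocytes of CD3eKO mice, which have no T cells, as antigen-presenting cells. The sources used here do not describe a separation of the T cells from the splenocytes before RNA was taken, nor whether the 3 libraries of a genotype came from separate mice or cultures, so p-values measure only the spread between these libraries. In such bulk samples, fewer cells of a type and less RNA per cell cannot be told apart.

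The libraries held 14783890 to 19675447 expected counts. Foxo1 itself had 85.4, 46.5 and 115 TMM-normalized counts (expected counts scaled to a common library size) in Foxo1TKO 1, 2 and 3 and 1529, 2285 and 1598 in Foxo1Ctrl 1, 2 and 3, a log2 difference of -4.45 with a standard error (SE) of 0.36 (edgeR adjusted p = 0.000195). The summed level of 8 T-cell markers was 8387 to 9099 TPM (transcript level per length and library size) in Foxo1TKO and 9033 to 9207 in Foxo1Ctrl. The 8 regulatory T-cell markers summed to 1595 to 2167 TPM in Foxo1TKO and 1265 to 1619 in Foxo1Ctrl, with 1 of 8 tested higher and 1 lower. Among them Foxp3 averaged 10.5 and 21.1 normalized counts and did not pass (edgeR adjusted p = 0.165). The 8 stroma and endothelium markers summed to 65.9 to 77.7 and 66.9 to 114 TPM. The 4 NK-cell markers averaged 2.80 and 2.91 TPM in sum. Markers of the cells named next were low beside the T-cell markers but not equal between genotypes. The 8 B-cell markers summed to 7.09 to 9.76 TPM in Foxo1TKO and 22.2 to 28.9 in Foxo1Ctrl, with 4 of 6 tested lower. The 6 mast cell and basophil markers summed to 35.9 to 65.5 and 9.05 to 13.97 TPM, with 2 of 2 tested higher. These were Kit, at 28.3 to 61.4 and 7.89 to 11.8 TPM, and Cpa3, a mast-cell protease, at 3.65 to 5.77 and 0.98 to 2.21 TPM (edgeR adjusted p = 0.00134 and 0.00336). For the chains of the IgE receptor, Ms4a2 had 11, 7 and 10 counts in Foxo1TKO 1, 2 and 3 and 0 in the controls, and Fcer1a had 0 counts in every library. The 6 dendritic-cell markers averaged 10.1 TPM in sum in Foxo1TKO and 3.16 in Foxo1Ctrl. Of the 3 tested, Itgax alone was higher, from 0 to 0.43 TPM in Foxo1Ctrl to 6.59 to 7.68 in Foxo1TKO (edgeR adjusted p = 3.42e-05), while Zbtb46, which made up most of the control sum, averaged 2.02 TPM in Foxo1TKO and 2.37 in Foxo1Ctrl. The 4 plasma-cell markers, with 2 of 2 tested lower, summed to 22.1 to 53.0 and 99.7 to 120 TPM. The 6 neutrophil markers, none of which could be tested, summed to 0.28 to 5.47 and 0 to 0.31 TPM. Of 8 macrophage markers, which summed to 4.43 to 5.84 and 2.37 to 3.01 TPM, C1qa and C1qc were at 0. The part of these cells in the levels below was not tested.

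The Penk message is shown because it holds the peptides. In transcript Penk-201 (GENCODE M21, GRCm38) the coding sequence of 269 codons, stop codon included, contained 7 runs that encode an enkephalin, 6 for Met-enkephalin and 1 for Leu-enkephalin, and all 7 stood directly behind a pair of codons for basic residues, the kind of site at which convertases cut. The stretch of 288 coding bases at chr4:4134067-4134354 (minus strand, codons 98 to 193) shows 4 of the Met-enkephalin runs, which are written in capitals.
Penk: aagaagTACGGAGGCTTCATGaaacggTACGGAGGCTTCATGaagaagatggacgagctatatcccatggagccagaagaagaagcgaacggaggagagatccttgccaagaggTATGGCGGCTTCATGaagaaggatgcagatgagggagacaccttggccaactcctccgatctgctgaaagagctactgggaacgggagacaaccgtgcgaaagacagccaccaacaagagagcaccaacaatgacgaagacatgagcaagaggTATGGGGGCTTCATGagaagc

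Penk was the most abundant of the 4 genes in Foxo1TKO cells. It had 8608, 6523 and 4234 normalized counts in Foxo1TKO 1, 2 and 3, and 53.7, 91.5 and 182 in Foxo1Ctrl 1, 2 and 3. Every Foxo1TKO library was above every Foxo1Ctrl library, and Penk was also read in all 3 controls. The means were 6455 ± 2188 and 109 ± 66.0 (SD, n = 3 each), a 59.2-fold difference, which became 89.0-fold without Foxo1Ctrl 3. Per length, the Penk level was 593, 399 and 242 TPM in the Foxo1TKO libraries, which placed it 285th, 441st and 727th among all genes. In the Foxo1Ctrl libraries it was 3.06, 4.53 and 11.7 TPM, at ranks 9853, 8155 and 6527. The levels spread 2.03-fold among the Foxo1TKO libraries and 3.40-fold among the controls, where Foxo1Ctrl 3 was the highest. The gene lies at chr4:4133531-4138819 on the minus strand, and A830012C17Rik, a noncoding transcript on the other strand, overlaps its start. A830012C17Rik had 54, 23 and 9 counts in Foxo1TKO 1, 2 and 3 and 0 in the controls. Whether the counting used strand is not stated, so reads from the overlap cannot be assigned to either gene with certainty.

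Crhbp, the CRH-binding protein gene (chr13:95431371-95444924, minus strand), was near the detection limit in control cells. It had 2230, 3142 and 3015 normalized counts in Foxo1TKO 1, 2 and 3, and 0, 0 and 7.75 in Foxo1Ctrl 1, 2 and 3. The Foxo1TKO libraries lay close together, within 1.41-fold, and the genotypes did not overlap. The Foxo1TKO mean was 2795 ± 494 normalized counts (SD, n = 3). All control signal was 8 counts in Foxo1Ctrl 3, so the ratio of the pooled counts, 952-fold, has an exact 95% interval from counting of 483 to 2205, which covers counting error only. Per length, Crhbp stood at 101.1, 128 and 115 TPM in Foxo1TKO 1, 2 and 3 and at 0, 0 and 0.33 TPM in the controls.

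Avpr1a, the V1a vasopressin receptor gene (chr10:122448499-122453452, plus strand), had 1 count in all controls together. It had 1396, 1792 and 2389 normalized counts in Foxo1TKO 1, 2 and 3 (mean 1859 ± 500, SD, n = 3), and 0, 0 and 0.97 in Foxo1Ctrl 1, 2 and 3. All 3 Foxo1TKO libraries were high and did not overlap the controls. The lone control count puts the pooled ratio at 4993-fold with an exact 95% counting interval of 896 to 197300. The level per length was 40.7, 47.0 and 58.7 TPM in Foxo1TKO 1, 2 and 3. Gm48877, an annotated antisense gene that overlaps Avpr1a, had 0 counts in all 6 libraries.

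Vipr1, the VPAC1 receptor gene (chr9:121642716-121672954, plus strand), was the member that went the other way. It had 7.61, 3.51 and 9.66 normalized counts in Foxo1TKO 1, 2 and 3, and 228, 207 and 188 in Foxo1Ctrl 1, 2 and 3. The controls lay within 1.21-fold of each other, and every Foxo1TKO library was below them. The means were 6.93 ± 3.13 and 208 ± 19.9 (SD, n = 3 each), a 29.97-fold difference. Only 9, 4 and 9 reads lay behind the Foxo1TKO values, and the pooled ratio of 30.5 has an exact 95% counting interval of 20.0 to 49.1. The summed B-cell markers were also lower in Foxo1TKO, by 3.15-fold. Per length, Vipr1 was modest even in the controls, at 3.40, 2.48 and 2.99 TPM.

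**Figure D1:**
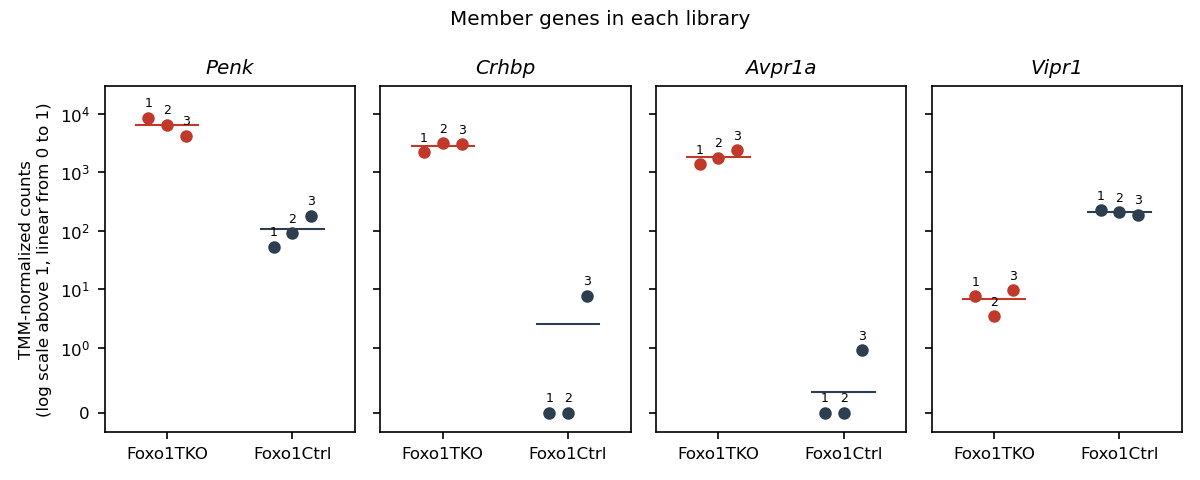
Normalized counts of Penk, Crhbp, Avpr1a and Vipr1 (vertical axis, logarithmic above 1 and linear from 0 to 1) in each of the 3 Foxo1TKO and 3 Foxo1Ctrl libraries; numbers are replicates and bars are means. The genotypes do not overlap for any of the 4 genes, and Foxo1Ctrl 3 is the highest control for Penk, Crhbp and Avpr1a.

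The genotypes did not overlap for any of the 4 genes, as for 42.7% of all genes tested (21.5% with Foxo1TKO higher, 21.2% with it lower), and nothing is read from this, since the genes were chosen for it. The 3 higher genes did not vary in parallel among the Foxo1TKO libraries. Penk was highest in Foxo1TKO 1 and lowest in Foxo1TKO 3, whereas Avpr1a was lowest in Foxo1TKO 1 and highest in Foxo1TKO 3. Among the controls, Foxo1Ctrl 3 was the highest library for Penk, Crhbp and Avpr1a on either scale. For Vipr1 it was the lowest in normalized counts, while in TPM Foxo1Ctrl 2 was the lowest. The normalized count of Foxo1Ctrl 3 was 2.82% of the Foxo1TKO mean for Penk, 0.277% for Crhbp and 0.0521% for Avpr1a. On the per-length scale the order in each Foxo1TKO library was Penk, Crhbp, Avpr1a, Vipr1. Penk exceeded Crhbp by 2.10-fold to 5.87-fold in TPM and Crhbp exceeded Avpr1a by 1.96-fold to 2.73-fold, and the TPM ranges of neighbouring genes did not touch. In the controls, Penk (3.06 to 11.7 TPM) and Vipr1 (2.48 to 3.40 TPM) overlapped, as did Crhbp (0 to 0.33 TPM) and Avpr1a (0 to 0.03 TPM).

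For each member the 5 genes with the most similar pattern over the 6 libraries are named as a description, by Pearson correlation of log2 CPM over 9231 genes that averaged at least 100 normalized counts. These correlations are dominated by the separation of the genotypes, which all 6 points share. For Penk they were Xpo1, a nuclear export receptor, Cd160, a receptor of cytotoxic lymphocytes, Crybg1, Endod1 and Palld, with r from 0.997 to 0.999. Cd160 had 7251, 5875 and 4868 normalized counts in Foxo1TKO 1, 2 and 3 and 333, 456 and 592 in Foxo1Ctrl 1, 2 and 3, the same order of libraries as Penk. For Crhbp they were Scel, which encodes sciellin, AC121821.1, Scap, which escorts the sterol-regulated transcription factors, Trpm1, a cation channel, and Rpl7l1, with r from 0.998 to 0.999. Scel, like Crhbp, was read in the controls only in Foxo1Ctrl 3, at 3.88 normalized counts. For Avpr1a they were Ttc28, Ramp1, Eno3, the muscle enolase, Txn2, a mitochondrial thioredoxin, and Zcchc12, with r of 0.999 for each. For Vipr1 they were Rnf125, a ubiquitin ligase, Madd, Ablim1, Spata13 and Arid5b, with r from 0.996 to 0.998.

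The partners of the 4 genes were for the most part not read. In the opioid family, Pdyn, the dynorphin precursor, and Oprd1 and Oprk1, the delta and kappa receptors, had 0 counts in all 6 libraries, Oprm1, the mu receptor, had 0 to 3 counts per library, Pnoc, the nociceptin precursor, 0 to 5 and its receptor Oprl1 0 or 1. A count of 0 allows up to 3 counts per library, 0.152 to 0.203 CPM (counts scaled to library size). Pomc, the precursor of beta-endorphin and the melanocortins, was read in both genotypes, with 50.7, 77.2 and 93.4 normalized counts in Foxo1TKO 1, 2 and 3 and 53.7, 108 and 58.1 in Foxo1Ctrl 1, 2 and 3, which overlap (log2 difference 0.01, SE 0.37, edgeR adjusted p = 0.987). Ogfr, the nonclassical receptor for Met-enkephalin known as the opioid growth factor receptor, was the one receptor of the family read at a substantial level. It averaged 16.01 TPM in Foxo1TKO and 16.6 TPM in Foxo1Ctrl, with a log2 difference of -0.11 (SE 0.26, edgeR adjusted p = 0.798). Its relative Ogfrl1 was at -0.72 (SE 0.36, edgeR adjusted p = 0.187).

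The peptides and receptors around the other 3 members were sparser still. Crh, Ucn and Ucn3 encode ligands of Crhbp or of the CRH receptors. They and the receptor genes Crhr1 and Crhr2 had 0 counts throughout, and Ucn2 had 0 to 2. Avp, the vasopressin precursor, and the receptor genes Avpr1b and Oxtr were at 0, and Oxt, the oxytocin precursor, had 1 count in 1 control library. Avpr2, the Gs-coupled vasopressin receptor, had 15.2, 3.51 and 39.7 normalized counts in Foxo1TKO 1, 2 and 3 and 27.4, 19.4 and 38.8 in Foxo1Ctrl 1, 2 and 3, which overlap (log2 difference -0.56, SE 0.70, edgeR adjusted p = 0.614). Vip, Adcyap1, the PACAP precursor, and Adcyap1r1, its own receptor, were at 0. Vipr2, the VPAC2 receptor known from activated T cells, had 3 counts in Foxo1Ctrl 1 and 0 in the other 5 libraries.

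Of 128 further neuropeptide ligand and receptor genes listed across 17 families, 127 were matched by symbol, 74 had no count in any library, 40 had too few to test and 13 were tested. Of the 13, 4 rose and 2 fell, where a gene counts as changed at an adjusted p under 0.05 and a difference over 1.5-fold. By this rule 23.0% of all 13691 tested genes changed, 11.1% up and 11.8% down. The list's median log2 difference was 0.01, as was the median of all genes tested. Without any of the Foxo1TKO libraries the count of changed genes was 3, because Nts, Sort1 and Mc5r, each read in Foxo1TKO libraries alone or nearly so, then had too few libraries to be tested.

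The genes that rose belonged to the neurotensin, melanocortin and calcitonin families. Nts, the neurotensin precursor, had 113, 119 and 99.8 normalized counts in Foxo1TKO 1, 2 and 3 and 1.19, 1.14 and 0.97 in Foxo1Ctrl 1, 2 and 3 (edgeR adjusted p = 7.57e-05). The pooled ratio was 102-fold with an exact 95% counting interval of 34.7 to 497. Sort1, the sorting receptor sortilin, which also binds neurotensin, had 129, 115 and 85.9 normalized counts in Foxo1TKO and 2.39, 0 and 0 in Foxo1Ctrl (edgeR adjusted p = 0.000509), while both G protein-coupled neurotensin receptors, Ntsr1 and Ntsr2, were at 0. Mc5r, a melanocortin receptor, had 84.5, 242 and 177 against 0, 0 and 1.94 (edgeR adjusted p = 0.000603). These 3 genes, like Crhbp and Avpr1a, were at or near 0 in the controls. Ramp1, the partner protein with which Calcrl forms the receptor for calcitonin gene-related peptide, rose from 180, 191 and 212 normalized counts in Foxo1Ctrl 1, 2 and 3 to 1220, 1220 and 1457 in Foxo1TKO 1, 2 and 3, a log2 difference of 2.73 (SE 0.17, edgeR adjusted p = 7.71e-05).

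The 2 genes that fell were both receptors. Calcrl, the receptor subunit that Ramp1 joins, had 221, 203 and 163 normalized counts in Foxo1TKO 1, 2 and 3 and 533, 566 and 403 in Foxo1Ctrl 1, 2 and 3, a log2 difference of -1.35 (SE 0.22, edgeR adjusted p = 0.0037). Thus the subunits of the CGRP receptor changed in opposite directions. Prlr, the prolactin receptor, had 1.69, 0 and 0 normalized counts against 15.5, 21.7 and 19.4 (edgeR adjusted p = 0.00533). Its call was lost when transcript length was taken into account, with an adjusted p of 0.128. Ramp3, a further partner of Calcrl, and Nmb and Npff, ligands of the neuromedin B and neuropeptide FF receptors, did not pass the test. Below the filter, and chosen after their values were seen, Ghrh, the growth hormone-releasing hormone gene, had 7, 19 and 13 counts in Foxo1TKO 1, 2 and 3, Grpr, the gastrin-releasing peptide receptor, 8, 28 and 11, and Ramp2 7, 5 and 8. In the controls Ghrh and Ramp2 had 0 counts and Grpr 1. Other genes below the filter went the other way with fewer counts. Sctr and Glp1r had 0 counts in Foxo1TKO and 4, 1 and 1 and 0, 2 and 8 in Foxo1Ctrl 1, 2 and 3, and Apln had 2, 0 and 0 against 8, 0 and 5.

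**Figure D2:**
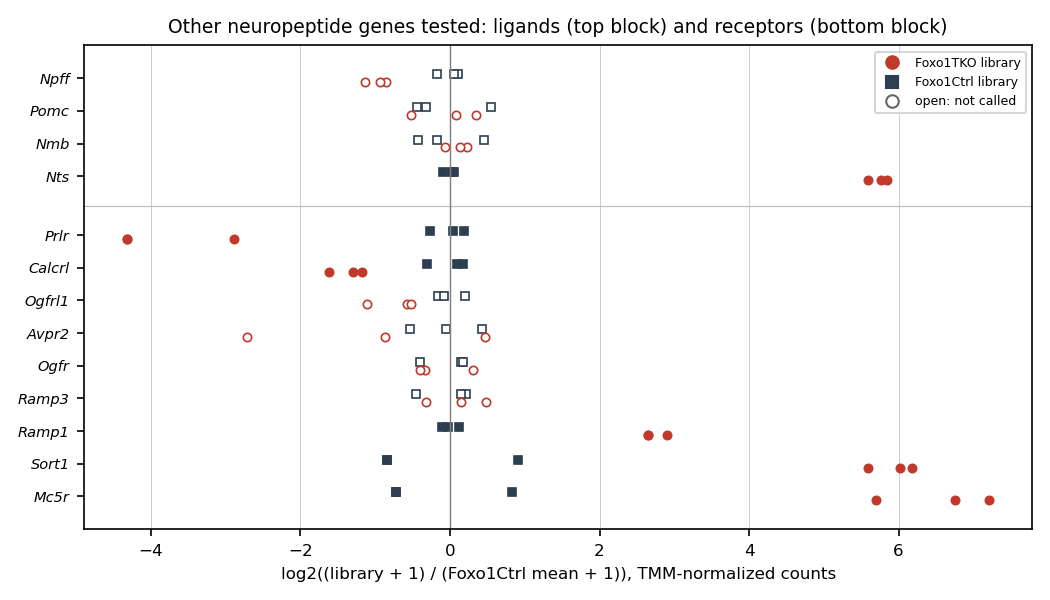
The 13 tested neuropeptide genes other than the 4 members, ligands above the line and receptors below, with each library drawn as log2 of its normalized count plus 1 over the Foxo1Ctrl mean plus 1; filled symbols are genes that changed. Nts, Sort1 and Mc5r stand more than 5 log2 units to the right in all Foxo1TKO libraries, while Calcrl and Prlr stand to the left.

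A precursor yields peptide only where it is cut and trimmed, so the processing enzymes were examined next. Of 22 processing genes, 11 were tested, of which 2 rose and 4 fell, 54.55% beside the 23.0% of all genes. Pcsk1, the convertase PC1/3, which cleaves proenkephalin and POMC, had 4.23, 18.4 and 25.8 normalized counts in Foxo1TKO 1, 2 and 3 and 254, 403 and 277 in Foxo1Ctrl 1, 2 and 3 (log2 difference -4.21, SE 0.53, edgeR adjusted p = 0.00136). Only 5, 21 and 24 counts lay behind the Foxo1TKO values. The level was lowest in Foxo1TKO 1, the library with the most Penk, and a link with Penk was not tested. Pcsk2, the other classical neuroendocrine convertase, had 0 counts, and Cpe, the carboxypeptidase that trims enkephalins in endocrine cells, 0 to 2 counts per library. Cpm, a carboxypeptidase of the cell surface, had 208, 159 and 59.0 normalized counts in Foxo1TKO and 1122, 674 and 983 in Foxo1Ctrl (log2 difference -2.69, SE 0.44, edgeR adjusted p = 0.00388). Ctsl, cathepsin L, which can also cut proenkephalin, was at -1.40 (SE 0.29, edgeR adjusted p = 0.0111), and Scg5, the 7B2 chaperone of PC2, at -0.95 (SE 0.27, edgeR adjusted p = 0.0355).

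In the other direction, Pam, the enzyme that amidates peptide ends, a step that enkephalins do not need, had 43.1, 41.2 and 67.6 normalized counts in Foxo1TKO 1, 2 and 3 and 8.35, 11.4 and 11.6 in Foxo1Ctrl 1, 2 and 3 (log2 difference 2.16, SE 0.37, edgeR adjusted p = 0.00505). Furin, the general convertase of the secretory pathway, had 380, 384 and 386 against 273, 218 and 256 (log2 difference 0.62, SE 0.18, edgeR adjusted p = 0.0377). Furin lost its call without any of the 6 libraries, with adjusted p between 0.0558 and 0.127. Scg5 lost it without Foxo1TKO 1, 2 or 3 or Foxo1Ctrl 1 or 3 (adjusted p 0.0759 to 0.128), and Ctsl without Foxo1TKO 2 (adjusted p = 0.0621). Pcsk4, a convertase known from germ cells, had a log2 difference of 1.32 (SE 0.42) and did not pass (edgeR adjusted p = 0.0565).

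Of 22 peptidase genes that break peptides down, 15 were tested, of which 3 fell and none passed as higher, 20% beside the 23.0% of all genes. Mme, neprilysin, the classical enkephalin-degrading enzyme, had 0 counts in all 6 libraries. Dpp4 (CD26), which clips short peptides including VIP and PACAP at their ends, had 1740, 1692 and 1323 normalized counts in Foxo1TKO 1, 2 and 3 and 5572, 4492 and 5096 in Foxo1Ctrl 1, 2 and 3 (log2 difference -1.67, SE 0.17, edgeR adjusted p = 0.000509). Lnpep, the aminopeptidase that inactivates vasopressin and oxytocin, fell by 0.86 on the log2 scale (SE 0.14, edgeR adjusted p = 0.00388), from 2509 to 2964 normalized counts in the controls to 1432 to 1603. Tpp2 fell by 0.77 (SE 0.16, edgeR adjusted p = 0.0106). Thop1 and Prep, cytosolic oligopeptidases, were higher in every Foxo1TKO library than in any control, as were 21.5% of all genes tested. The margins between Foxo1TKO 3 and Foxo1Ctrl 3 were narrow, 36.49 against 35.85 normalized counts for Thop1 and 371.3 against 368.2 for Prep. Their adjusted p of 0.0565 and 0.0649 (edgeR) missed the threshold. Dpp7 and Prcp separated in the same way and did not pass either. Together the 26 tested processing and breakdown genes had a median log2 difference of -0.09. Of them 34.6% changed, beside the 23.0% of all genes.

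**Figure D3:**
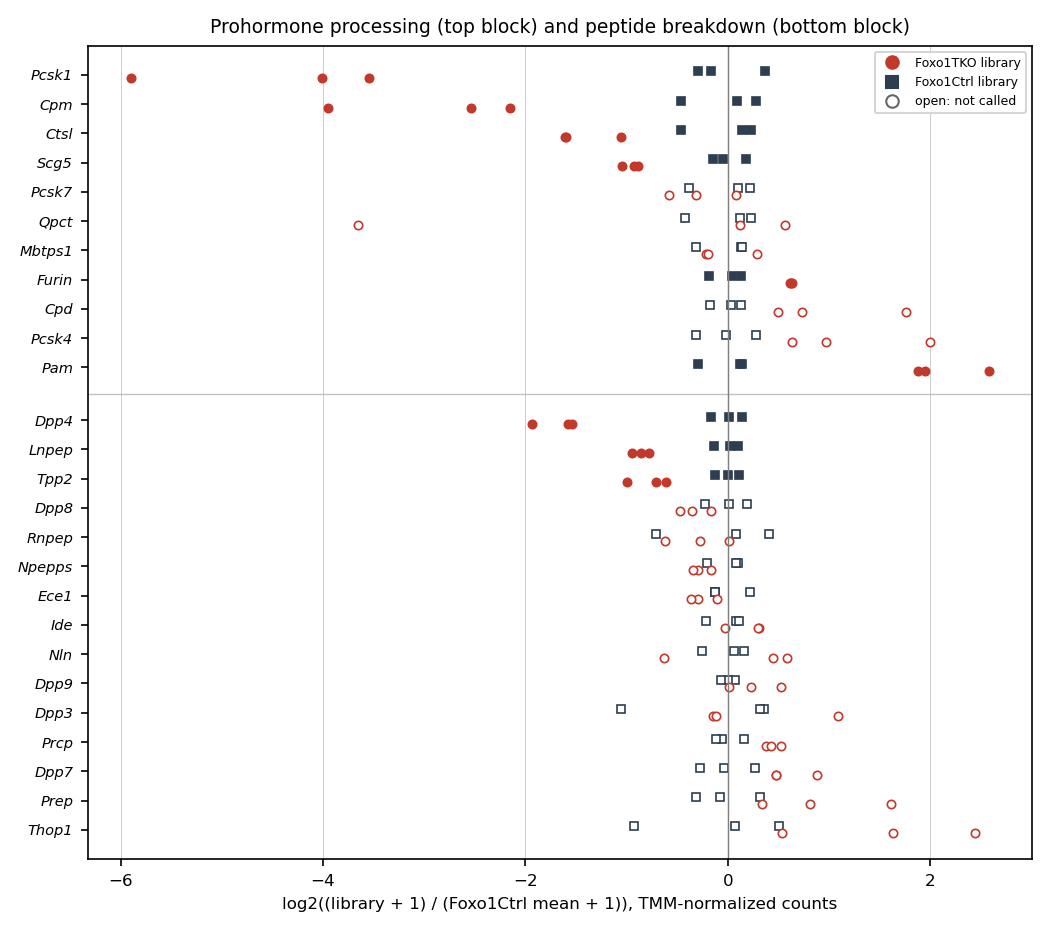
The 11 tested processing genes (above the line) and 15 tested breakdown genes (below), each library drawn as log2 of its normalized count plus 1 over the Foxo1Ctrl mean plus 1; filled symbols are genes that changed. Pcsk1 and Cpm lie farthest to the left and Pam to the right among the filled genes, while most peptidases straddle 0.

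Avpr1a signals through Gq and phospholipase C beta, Vipr1 through Gs and cyclic AMP, and opioid receptors through Gi. Of 52 genes of these routes 39 were tested, of which 3 rose and 12 fell, that is 38.5% beside the 23.0% of all genes (11.1% up and 11.8% down), and the median log2 difference was -0.30 beside 0.01 for all genes tested. In the Gs route 3 genes rose and 4 fell. Prkar2b, a regulatory subunit of protein kinase A, had 43.1, 100.9 and 92.3 normalized counts in Foxo1TKO 1, 2 and 3 and 2.39, 3.43 and 5.81 in Foxo1Ctrl 1, 2 and 3 (log2 difference 4.01, SE 0.49, edgeR adjusted p = 0.00124). Adcy5, an adenylyl cyclase, was at 3.66 (SE 0.64, edgeR adjusted p = 0.00558) and Gnas, the Gs alpha subunit, at 0.92 (SE 0.27, edgeR adjusted p = 0.0417). Adcy7, another cyclase, went from 1668 to 1929 normalized counts in the controls to 931 to 980 (log2 difference -0.91, SE 0.14, edgeR adjusted p = 0.00283). Rapgef4, a cyclic AMP-activated exchange factor, was at -1.16, Crtc3, a CREB coactivator, at -0.98 and Crebbp, the CREB-binding protein, at -0.82, with adjusted p of 0.0147, 0.0191 and 0.0276 (edgeR). The related exchange factor gene Rapgef3, below the filter and named after its values were seen, had 0 counts in Foxo1TKO and 30, 8 and 19 in Foxo1Ctrl 1, 2 and 3.

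In the Gq route, that of Avpr1a, 5 genes fell and none passed as higher. Gnaq, the Gq alpha subunit, had 88.7, 111 and 48.3 normalized counts in Foxo1TKO 1, 2 and 3 and 280, 245 and 251 in Foxo1Ctrl 1, 2 and 3 (log2 difference -1.63, SE 0.31, edgeR adjusted p = 0.00834). Gna15, the promiscuous Gq-class subunit of blood cells, was at -2.43 (SE 0.41, edgeR adjusted p = 0.0045), while Gna11, the closest relative of Gnaq, was at -0.30 (SE 0.41, edgeR adjusted p = 0.649). The 3 IP3 receptor genes Itpr1, Itpr2 and Itpr3, whose channels release calcium below Gq, were at -0.80, -0.71 and -1.20 with adjusted p of 0.00888, 0.0222 and 0.0137 (edgeR). Of 4 genes with the Plcb name, the phospholipases between them, 3 were tested and none passed. Among Gi and desensitization genes, Grk2 (-1.11), Grk4 (-0.89) and Arrb1, which encodes beta-arrestin 1, (-0.94) fell with adjusted p of 0.00888, 0.0173 and 0.0447 (edgeR).

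These signalling counts changed with the library left out, and each such fit has fewer libraries. Without Foxo1TKO 2 the counts came to 3 genes, without Foxo1TKO 3 to 9 and without Foxo1Ctrl 1 to 8, while the share of all genes called came to 12.01%, 16.1% and 13.8%. Without Foxo1TKO 2 the calls of Rapgef4 (adjusted p = 0.0526), Crtc3 (0.0825), Crebbp (0.106), Itpr1 (0.0619), Itpr2 (0.0978), Itpr3 (0.0723), Grk2 (0.0545), Grk4 (0.0796), Arrb1 (0.17) and Gnas (0.14) were lost. Without Foxo1Ctrl 1 those of Rapgef4 (0.0548), Crtc3 (0.0589), Crebbp (0.0581), Itpr2 (0.0743), Itpr3 (0.0529), Arrb1 (0.149) and Gnas (0.149) were lost. Foxo1TKO 3 ended those of Crtc3 (0.0608), Itpr2 (0.0553), Arrb1 (0.132) and Gnas (0.123) when left out, Foxo1Ctrl 3 those of Crtc3 (0.0712), Itpr2 (0.0762), Grk4 (0.0607), Arrb1 (0.106) and Gnas (0.125), and Foxo1TKO 1 those of Crebbp (0.0754) and Itpr2 (0.0594). Adcy7, Gnaq and Gna15 kept their calls in each of these fits. Prkar2b and Adcy5 kept theirs wherever they could be tested.

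**Figure D4:**
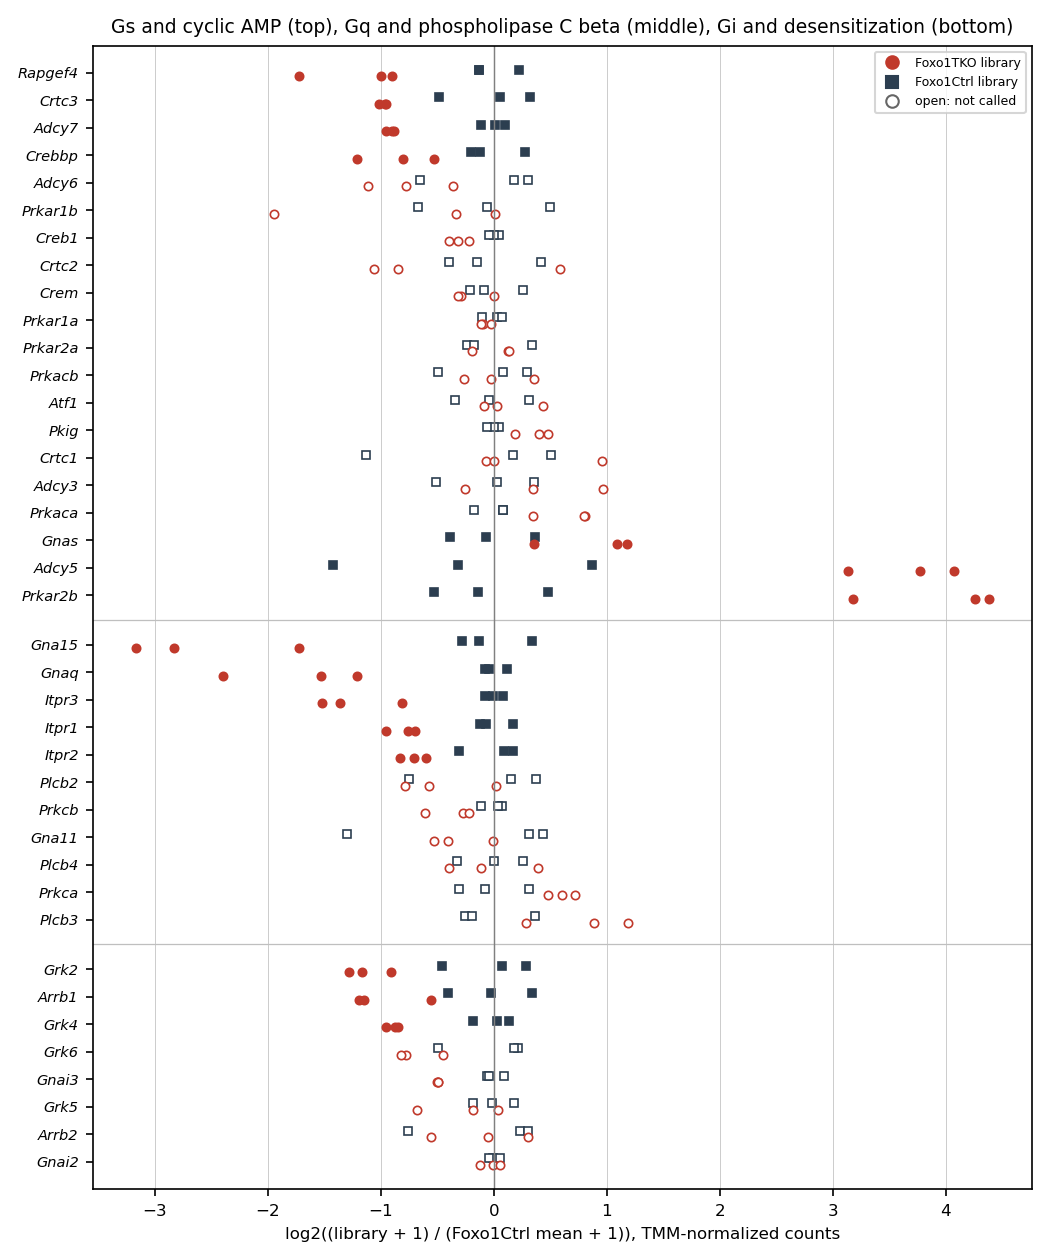
The 39 tested signalling genes, Gs and cyclic AMP at the top, Gq and phospholipase C beta in the middle, Gi and desensitization at the bottom, each library drawn as log2 of its normalized count plus 1 over the Foxo1Ctrl mean plus 1; filled symbols are genes that changed. Prkar2b and Adcy5 stand far to the right, and the filled genes of the middle and bottom groups all stand to the left.

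CRH drives glucocorticoid release, so genes of steroid synthesis and response were counted as well. Of 11 listed genes 8 were tested, of which 2 rose and 1 fell, 37.5% beside the 23.0% of all genes. Tsc22d3, which encodes the glucocorticoid-induced leucine zipper protein, had 347, 276 and 229 normalized counts in Foxo1TKO 1, 2 and 3 and 3885, 1966 and 2775 in Foxo1Ctrl 1, 2 and 3 (log2 difference -3.34, SE 0.29, edgeR adjusted p = 0.000272). Another glucocorticoid target, Fkbp5, had 269, 269 and 267 against 262, 293 and 251, a log2 difference of 0.00 (SE 0.18, edgeR adjusted p = 0.998). Cyp11a1, the enzyme that starts steroid synthesis from cholesterol, had 129, 37.7 and 36.5 normalized counts against 2.39, 5.72 and 3.88 (log2 difference 3.79, SE 0.65, edgeR adjusted p = 0.00516). Klf9, a steroid-responsive transcription factor, was at 1.18 (SE 0.31, edgeR adjusted p = 0.0276). Nr3c1, the glucocorticoid receptor, was at 0.58 (SE 0.16, edgeR adjusted p = 0.0325), just under the 1.5-fold limit. Without Foxo1TKO 2 or Foxo1TKO 3 only Tsc22d3 was still called. Klf9 then had an adjusted p of 0.0966 or 0.0608, and it also lost its call without Foxo1TKO 1 (0.052) or Foxo1Ctrl 1 (0.0821), while Cyp11a1 could not be tested with only 2 Foxo1TKO libraries.

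The genomic neighbourhood of the members was compared next, over all genes within 200 kb. Of 45 neighbours 17 were tested, of which 2 rose and 5 fell, 41.2% beside the 23.0% of all genes. Around Penk, the 3 tested genes, Plag1, Chchd7 and Gm11808, had log2 differences of 0.15, 0.09 and 0.06 and none passed. They lie 159.9 to 195.1 kb from Penk. A830012C17Rik, which overlaps the start of Penk, did not reach the filter and was not tested. It had 54, 23 and 9 counts in Foxo1TKO 1, 2 and 3 and 0 in the controls. Downstream of Avpr1a, on the same strand and 0.68 kb away (chr10:122454132-122456809), Gm48878, a gene model that the annotation marks as still to be tested by experiment, had 33.0, 27.2 and 41.9 normalized counts in Foxo1TKO 1, 2 and 3 and 0 in the controls, at least 10.3-fold higher (edgeR adjusted p = 0.00188). Whether its reads come from a transcript of its own or from Avpr1a was not tested. Gm48878 was the one other gene read within 200 kb of Avpr1a.

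Around Crhbp, 3 genes fell and 1 rose. F2rl1, the protease-activated receptor PAR2, 66.8 kb from Crhbp, had 29.6, 28.1 and 18.2 normalized counts in Foxo1TKO 1, 2 and 3 and 1061, 447 and 1024 in Foxo1Ctrl 1, 2 and 3 (log2 difference -5.00, SE 0.41, edgeR adjusted p = 0.00021), the opposite direction to Crhbp. Iqgap2, a scaffold protein, was at -1.91 (SE 0.26, edgeR adjusted p = 0.00192) and F2r, the thrombin receptor PAR1, at -1.68 (SE 0.48, edgeR adjusted p = 0.0395). Zbed3 was at 1.41 (SE 0.38, edgeR adjusted p = 0.0311). Around Vipr1, Sec22c, a vesicle transport gene 7.09 kb away on the other strand, had 86.2, 79.8 and 55.8 normalized counts in Foxo1TKO and 305, 202 and 265 in Foxo1Ctrl, the direction of Vipr1 (log2 difference -1.78, SE 0.27, edgeR adjusted p = 0.00289). Higd1a was at -0.98 (SE 0.30, edgeR adjusted p = 0.0494). The count of 7 came to 4 without Foxo1TKO 1, 3 without Foxo1TKO 2, 4 without Foxo1TKO 3 and 4 without Foxo1Ctrl 1. F2rl1, Iqgap2 and Sec22c were called in every fit, whereas F2r, Zbed3 and Higd1a lost their calls without Foxo1TKO 2 (adjusted p 0.12, 0.0937 and 0.125) or Foxo1Ctrl 1 (0.105, 0.105 and 0.0631). F2r also lost it without Foxo1TKO 3 (0.0525) or Foxo1Ctrl 3 (0.115), Zbed3 without Foxo1TKO 1 (0.0892), Foxo1Ctrl 2 (0.0727) or Foxo1Ctrl 3 (0.056), and Higd1a without Foxo1TKO 1 (0.13), Foxo1TKO 3 (0.0878) or Foxo1Ctrl 2 (0.0622).

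**Figure D5:**
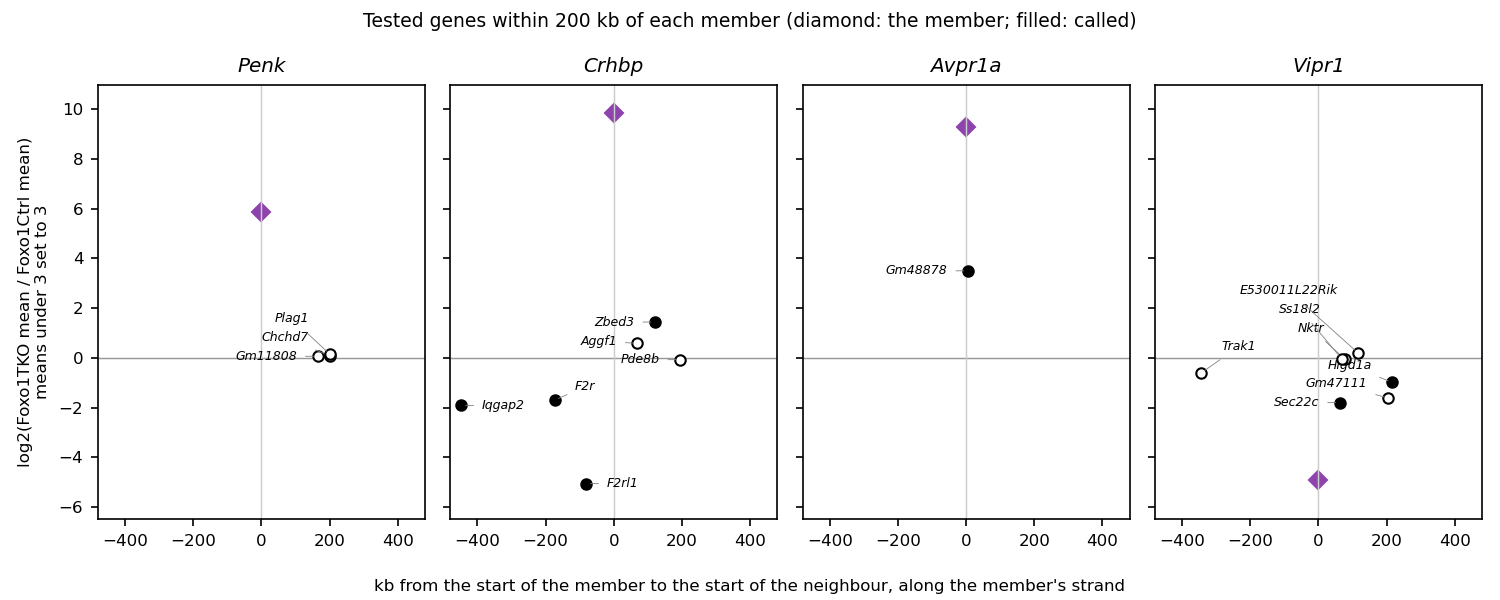
Log2 ratio of the Foxo1TKO mean to the Foxo1Ctrl mean, with means under 3 normalized counts set to 3, for each member (diamond) and the tested genes within 200 kb (circles, filled if changed), against the distance in kb from the member's start to the gene's start along the member's strand. No tested neighbour of Penk changed, F2rl1 lies opposite to Crhbp, and Gm48878 and Sec22c lie on the same side as Avpr1a and Vipr1.

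Promoter sequences from RefSeq (build GRCm38.p6) were at hand for Crhbp, Avpr1a and Vipr1. In the 250 bases before each start, TGACG or its reverse complement CGTCA, the core of the cyclic AMP response element, was found 1 time in each of the 3, and in 17.8% of all 32851 promoters. The full palindrome TGACGTCA (1.55% of promoters), the forkhead core GTAAACA or TGTTTAC (3.17%) and the AP-1 site TGACTCA or TGAGTCA (4.46%) were in none of the 3 windows. A TGACGTCA also counts as a TGACG match. The match lay 64 bases before the start in Crhbp, 165 in Avpr1a and 13 in Vipr1. A match is a description of letters, not a site. The promoters are shown for reference to these matches, which stand in capitals, as 250 bases for Avpr1a (chr10:122448249-122448498, plus strand) and Vipr1 (chr9:121642466-121642715, plus strand). For Crhbp, 93 bases of the window, the match among them, lie inside the gene as GENCODE M21 draws it. The 29 bases around that match are shown (chr13:95444879-95444907, minus strand).
Avpr1a: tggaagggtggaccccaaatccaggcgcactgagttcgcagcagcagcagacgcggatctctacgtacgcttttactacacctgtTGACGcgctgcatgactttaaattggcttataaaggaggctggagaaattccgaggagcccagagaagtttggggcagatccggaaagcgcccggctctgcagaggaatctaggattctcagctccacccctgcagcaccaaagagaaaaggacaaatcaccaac
Vipr1: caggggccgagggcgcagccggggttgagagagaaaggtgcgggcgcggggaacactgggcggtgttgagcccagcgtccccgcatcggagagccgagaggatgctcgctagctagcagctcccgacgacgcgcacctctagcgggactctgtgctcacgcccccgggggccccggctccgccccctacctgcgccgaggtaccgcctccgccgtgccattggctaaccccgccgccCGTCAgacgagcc
Crhbp: gagctggaccctCGTCAttgccacgcatt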

How the data were processed

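The authors sequenced 3 RNA libraries labelled Foxo1TKO and 3 labelled Foxo1Ctrl. The deposited files give expected counts, TPM and FPKM per gene, made per the labels with STAR 2.7.6a and RSEM 1.3.1 on GRCm38, and 1 table of size-factor normalized signal, which the authors made with DESeq2. Counts scaled by effective transcript length and by size factor matched 100% of the nonzero values of that signal within 0.1%. FPKM was not used. Here expected counts were rounded, the count filter given above was applied, and genotypes were compared with edgeR 4.0.16 (TMM scaling, quasi-likelihood test, Benjamini-Hochberg adjustment, R 4.3.3) without the replicate number. A call needed both a fold change over 1.5 and an adjusted p under 0.05. The script was tested on simulated data. Alternatives used DESeq2 1.42.0, limma 3.58.1 (on signal, log2 of the value plus a pseudocount of 1), other scalings, filters and left-out libraries. Log2 ratios of means set means under 3 counts to 3. Exact intervals are Clopper-Pearson at 95%. The members and the gene lists were chosen with earlier results of these data known. Genes named are Foxo1, the members, the opioid, CRH, vasopressin and oxytocin, and VIP and PACAP families, up to 4 called genes per direction and list with the largest differences, called neighbours within 200 kb, the 5 genes most like each member, and a few genes that did not pass, given for contrast after their values were seen. Library totals of 14783890 to 19675447 expected counts limit what can be said of genes with few reads.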

Additional observations from a re-analysis of the deposited data

How the results depend on the processing

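Over the settings tried, the 4 members kept their direction. The log2 ratios of means of Penk and Vipr1 moved by less than the spread between libraries under each other scaling, under TPM and the deposited signal, and with any library left out, which gave 5.56 to 6.47 for Penk and -5.22 to -4.59 for Vipr1. For Crhbp and Avpr1a the control means over all libraries lie under the floor of 3 counts and were set to it. With a library left out their ranges were 9.49 to 10.003 and 9.05 to 9.44. The low end for Crhbp came without Foxo1Ctrl 1 or 2, where the control mean lay above the floor and rested on the reads of Foxo1Ctrl 3. The other values depend on the floor, so these ranges do not measure stability. Averaged over same-numbered libraries, with values under 3 set to 3, the log2 ratios of Penk, Crhbp, Avpr1a and Vipr1 were 6.01, 9.39, 9.24 and -5.02. These are means of ratios, unlike the ratios of means above. A fit with the replicate number as a block gave 6 changed neuropeptide genes and 7 processing and breakdown genes (without the block 6 and 9). It also gave 18 signalling genes, 4 steroid genes and 6 neighbours (without the block 15, 3 and 7). Deviations of same-numbered libraries from their genotype means correlated at 0.432, 0.198 and -0.109. Deviations within a genotype constrain each other, so these values cannot decide whether the numbers pair the libraries. The study compared the genotypes as pairs when it measured surface proteins and proliferation in cultures of this kind. Leaving out a library gave 3 to 5 changed neuropeptide genes, 6 to 9 processing and breakdown genes, 3 to 17 signalling genes, 1 to 4 steroid genes and 3 to 6 neighbours. For the neuropeptide genes this came from the filter, since 3 of the 6 could not be tested with 2 Foxo1TKO libraries; for the others the cause was not tested, and each such fit has fewer libraries. Of the 41 called genes named, 23 kept the call in every fit that tested them and 18 lost it in at least 1 of 15, 8 of these only when a library was left out; none changed direction. Among fits over all libraries, taking transcript length into account ended the calls of Prlr, Ctsl, Gnas, Rapgef4, Grk4, Klf9 and Higd1a (adjusted p 0.0551 to 0.128). The deposited signal, which is also scaled for transcript length, ended those of Ctsl, Gnas, Rapgef4, Grk4, Klf9 and Higd1a (0.0578 to 0.103). No filter or the block ended those of Furin and Scg5, the block that of Zbed3, and limma-voom and both other scalings that of Higd1a. With 0 to 9 reads per library, Crhbp and Avpr1a in the controls and Vipr1 in Foxo1TKO are known only within wide counting intervals.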
